A study of Mus musculus with 12 samples.

Results

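The genes described here encode the Sm, LSm and snRNP proteins, the protein parts of the small nuclear ribonucleoproteins (snRNPs) that splice pre-mRNA. They were taken by name, as the identifiers whose symbol begins with Snrp, Snrnp or Lsm and continues only in digits or lower-case letters, without pseudogenes; 33 of 39174 gene identifiers match. Of these 33, 31 were counted as genes of Sm, LSm or snRNP proteins. The other 2 were counted apart. Lsmem1 encodes a leucine-rich membrane protein. The identifier the tables call Lsmd1 is Naa38 in the GENCODE M21 annotation, a subunit of an N-terminal acetyltransferase. Whether the Lsmd1 product holds an LSm domain was not examined. The name rule also misses a true member, since the identifier that M21 calls Lsm8 is named Naa38 in the tables; its values are given below beside those of the members.

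The 12 mRNA sequencing libraries come from primary motoneuron cultures of FVB mice. The groups, of 3 libraries each, were Smn-/-;SMN2 cultures (called SMA here, for spinal muscular atrophy) treated with 0.5 µM R-Roscovitine, untreated SMA cultures, Smn+/+;SMN2 cultures (called control here) with the same treatment, and untreated control cultures. Every culture, control included, carried the human SMN2 transgene. R-Roscovitine is a purine inhibitor of cyclin-dependent kinases. The values are FPKM, fragment numbers corrected for transcript length and sequencing depth, so levels can be set side by side between genes as well as between libraries. Sequence shared with other genes limits this. Of the matched genes, 22 shared 50-base windows of their longest coding transcript with other genes, and 11 shared none. After Snrpf, described below, the largest shares were 44.0% for Lsm5, 31.1% for Snrpa, 26.2% for Snrpn and 20.8% for Snrpe.

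Sm proteins close into a ring around a uridine-rich site on the U1, U2, U4 and U5 snRNAs, and the SMN protein, with its Gemin partners, loads that ring onto the RNA in the cytoplasm. Each snRNP then takes up proteins of its own. LSm proteins form related rings: LSM2-8 binds U6 snRNA in the nucleus, LSM1-7 binds mRNAs that are being degraded in the cytoplasm, and in U7 snRNP, which cuts histone pre-mRNA, LSM10 and LSM11 take the places of SmD1 and SmD2. SMN is thus the assembly factor of many of the proteins described here, and the genotype comparison asks whether the mRNAs of those proteins differ where the Smn1 gene is absent.

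Smn1 itself followed the labels. It stood at 6.82, 5.04 and 7.35 FPKM in treated SMA and 6.11, 7.19 and 8.58 FPKM in untreated SMA cultures, against 45.1, 38.2 and 39.2 FPKM in treated and 30.9, 41.2 and 51.2 FPKM in untreated control cultures. In SMA cultures the mean reached 15.7% of that in control cultures with treatment and 17.7% without (exact two-sided permutation p = 0.1 each, the smallest that 3 against 3 libraries allow). Depth, read from the step between low FPKM values, was 19.5 to 25.2 M reads in SMA and 23.3 to 28.7 M reads in control libraries. The labelled cell type is only partly borne out: of 10 motoneuron markers in the tables, Mnx1, Chat, Slc5a7, Lhx3, Isl2 and Isl1 were below 1 FPKM in every library. The 10 summed to 8.17 to 11.82 FPKM in treated SMA against 11.93 to 27.05 FPKM in treated control cultures. Without treatment the sums were 8.28 to 10.78 against 14.33 to 28.19 FPKM, and neither comparison overlapped. Averaged over both treatments, 3 of the 4 tested were lower and 1 higher in SMA. Chodl was called lower (log2 difference -1.08, limma adjusted p = 0.0314), but not with 1 mean per pair of treated and untreated libraries. The summed level of 12 pan-neuronal markers was 913 to 1159 FPKM in treated SMA against 1019 to 1506 FPKM in treated control cultures, and 796 to 928 FPKM in untreated SMA against 960 to 1391 FPKM in untreated control cultures. Summed astroglial markers ran the other way, at 234 to 476 against 147 to 208 FPKM with treatment and 273 to 457 against 163 to 207 FPKM without. Summed levels of 12 neural progenitor markers overlapped between genotypes, at 3085 to 3933 FPKM in treated SMA against 2194 to 3493 FPKM in treated control cultures and 3046 to 3976 FPKM in untreated SMA against 3366 to 3653 FPKM in untreated control cultures. Gene by gene, 10 of these 12 had a positive log2 difference in each genotype comparison. In the averaged one the median log2 difference of the 12 was 0.79, and 7 were called higher, beside 3.03% of all tested genes. With 1 mean per pair of treated and untreated libraries, 0 of all tested genes were called higher. The part of these markers in the members' differences was not tested. In bulk cultures, fewer cells of a type and less RNA per cell cannot be told apart.

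The Sm ring genes were among the most abundant members, and their levels were far from equal although the ring holds 1 copy of each protein. Averaged over the 12 libraries, Snrpd2 (SmD2) had 335 ± 37.4 FPKM and Snrpd3 (SmD3) 168 ± 18.8 FPKM (SD, n = 12). Snrpg (SmG) followed at 99.6 ± 6.22, Snrpe (SmE) at 98.2 ± 19.0, Snrpn (SmN) at 87.6 ± 24.2, Snrpd1 (SmD1) at 79.8 ± 7.30 and Snrpb (SmB) at 62.7 ± 8.41 FPKM. Snrpd2 was above Snrpd3, and Snrpd3 above Snrpg, in 12 of 12 libraries, whereas the ranges of neighbours from Snrpg down to Snrpb overlapped. Snrpf (SmF) stood apart at 8.70 ± 1.33 FPKM, 7.21-fold below Snrpb and below it in every library. The Snrpf value is uncertain, because 89.5% of the 50-base windows of its longest coding transcript also occur in transcripts of other genes, 58.5% of all its windows in Ccdc38, and reads from such windows can be assigned elsewhere. The summed FPKM of the 8 Sm ring genes was 873, 900 and 944 in treated SMA and 997, 951 and 927 in untreated SMA cultures, against 958, 904 and 977 in treated and 977, 894 and 969 in untreated control cultures, so the 4 groups overlapped.

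**Figure D1:**
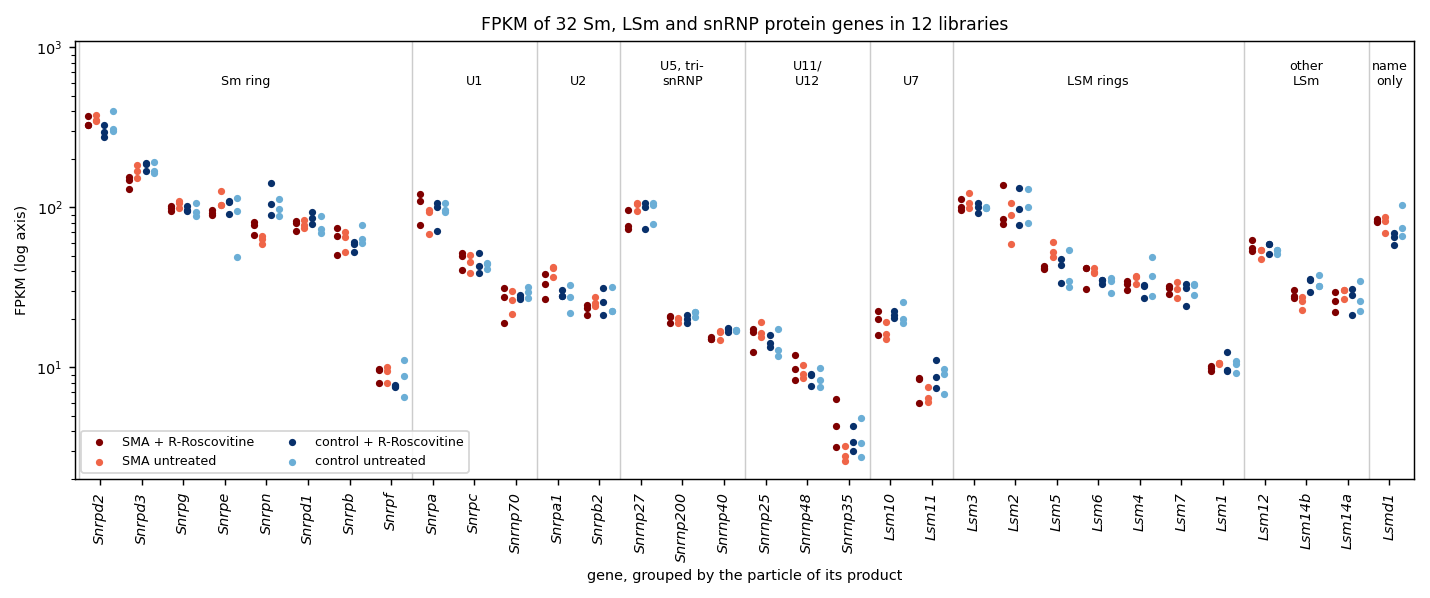
FPKM (log axis) of the 32 tested members in each of the 12 libraries, grouped by the particle to which their proteins belong; each point is 1 library, coloured by group. Snrpd2 lies highest at 274 to 401 FPKM, Snrpf lies well below the other Sm ring genes, Snrnp35 is lowest, and for most genes the 4 groups lie on top of each other.

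Snrpb and Snrpn encode interchangeable ring proteins. SmB is made in most cells, while SmN takes its place mainly in neurons, and Snrpn is an imprinted gene expressed from the paternal chromosome. Their coding sequences are shown because reads of these near-copies must be told apart for either gene to be measured. Snrpb has 693 coding bases (GRCm38 chr2:130171936-130179236, minus strand) and Snrpn 720 (chr7:59983243-59988604, minus strand), and they are identical at 80.5% of 693 aligned positions. The longest identical run is 32 bases. In the first 150 coding bases, given here from the start codon with differing bases in capitals, there are 19 differences.
Snrpb: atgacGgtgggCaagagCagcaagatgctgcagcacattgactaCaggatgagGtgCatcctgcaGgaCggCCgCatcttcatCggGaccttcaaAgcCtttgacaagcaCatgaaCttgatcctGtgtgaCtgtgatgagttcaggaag
Snrpn: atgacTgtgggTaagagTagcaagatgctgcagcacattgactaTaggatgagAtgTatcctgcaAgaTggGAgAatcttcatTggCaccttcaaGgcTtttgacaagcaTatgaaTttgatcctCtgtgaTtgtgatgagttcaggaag
Only 0.0899% of Snrpb windows of 50 bases were shared with any other gene. Snrpn shared 26.2% of its windows, most of them (20.6% of all) with Gm38393, which is M21's name for the identifier that the tables call Snrpn. The windows, and the coding bases printed above, are those of the gene that M21 itself calls Snrpn, another identifier at the same locus, while the FPKM values are those of the tables' identifier. The tables place Snrpn at chr7:59982495-60140219, and Snurf, an upstream reading frame carried on the same primary transcript, lies inside that interval, so reads between Snrpn and Snurf can be split.

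The LSM rings showed the same kind of spread. Lsm3 had 103 ± 8.38 FPKM and Lsm2 97.9 ± 24.7 FPKM, overlapping each other (SD, n = 12). Lsm5 (44.6 ± 8.73 FPKM), Lsm6 (36.6 ± 4.32), Lsm4 (34.3 ± 5.74) and Lsm7 (30.7 ± 2.98) followed, each overlapping the one before it. Lsm1, which closes the cytoplasmic decay ring, was lowest at 10.3 ± 0.888 FPKM, below Lsm7 in 12 of 12 libraries. Lsm8, which takes its place in the nuclear U6 ring and is the gene named Naa38 in the tables, had 46.5 ± 4.12 FPKM, was below Lsm2 in 12 of 12 libraries and overlapped Lsm5. The ratio of Lsm1 to Lsm8 was 0.211 ± 0.0181 in treated SMA against 0.221 ± 0.0577 in treated control cultures, and 0.229 ± 0.0183 in untreated SMA against 0.233 ± 0.00682 in untreated control cultures (SD, n = 3 each; exact two-sided permutation p = 0.9 in both).

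Among particle-specific members, those of U1 were Snrpa at 95.3 FPKM on average, Snrpc at 45.2 and Snrnp70 at 27.3 FPKM. The U2 genes Snrpa1 and Snrpb2 had 32.3 and 25.1 FPKM. Snrnp27 of the U4/U6.U5 tri-snRNP had 93.6 FPKM, against 20.5 FPKM for Snrnp200, the helicase that unwinds U4 from U6, and 16.5 FPKM for Snrnp40 of U5. The genes of the minor spliceosome's U11/U12 particle were lower still, with 15.3 FPKM for Snrnp25, 9.15 for Snrnp48 and 3.68 for Snrnp35, the lowest level of any tested member. The U7 genes Lsm10 and Lsm11 had 19.8 and 8.02 FPKM. Outside the rings, Lsm12 had 54.6 FPKM, and Lsm14b and Lsm14a, LSm-domain proteins of mRNA storage granules, had 30.4 and 27.5 FPKM. Of the genes counted apart, Lsmd1 had 76.9 FPKM, and Lsmem1, at no more than 0.201 FPKM in any library, was the 1 matched gene that was not tested.

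Libraries of a group agreed closely for some members and poorly for others. Snrnp200 and Snrnp40 varied least, with a within-group SD of 0.0574 and 0.0608 on the log2 scale, and Lsm2 and Snrpe most, at 0.387 and 0.351. The median SD of the 32 tested members was 0.187, beside 0.203 for the 11278 tested genes between the lowest and the highest member level. Snrpe had 96.6, 89.4 and 91.9 FPKM in treated SMA and 127, 104 and 103 FPKM in untreated SMA cultures, against 108, 90.7 and 109 FPKM in treated and 48.7, 95.4 and 114 FPKM in untreated control cultures. The 1 value far below the others is that of untreated control library 1, where Lsm5 was also at its lowest (31.8 FPKM).

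Without treatment, no member differed between SMA and control cultures beyond the threshold used throughout, a Benjamini-Hochberg adjusted p under 0.05 over 14982 tested genes in limma's moderated test. None of 32 tested members was called, where 0.00667% of all tested genes were (1 gene, Smn1). At an unadjusted p under 0.05 there were 5 members, 5 of 32 beside 14.1% of all tested genes. Of them 3 were higher in SMA, beside 7.16% of all tested genes, and 2 lower, beside 6.96%. Of the 32, 19 were higher and 13 lower, with a median log2 difference of 0.04, against -0.01 over all tested genes. The lowest p belonged to Snrpa1, whose product binds the U2 snRNA together with that of Snrpb2. It had 36.9, 41.7 and 42.6 FPKM in untreated SMA against 21.8, 27.5 and 32.8 FPKM in untreated control cultures, so the groups did not overlap. The log2 difference was 0.60 ± 0.16 (SE; 95% interval 0.26 to 0.94; limma adjusted p = 0.217). Snrpn came next, at 66.3, 59.4 and 63.3 FPKM in untreated SMA against 112, 98.1 and 88.4 FPKM in untreated control cultures, again without overlap. Its log2 difference was -0.61 ± 0.16 (SE; 95% interval -0.95 to -0.26; limma adjusted p = 0.217). Lsm14b followed, at 23.0, 27.4 and 26.1 FPKM in untreated SMA against 37.8, 32.4 and 32.2 FPKM in untreated control cultures (log2 difference -0.37 ± 0.12, SE; limma adjusted p = 0.230).

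By particle, 5 of 8 Sm ring genes and 5 of 7 LSM ring genes were higher and the rest lower in untreated SMA cultures. The U7 genes were both lower, Lsm10 at 14.98, 19.1 and 16.2 FPKM against 25.7, 20.1 and 19.0 FPKM, and Lsm11 at 7.60, 6.49 and 6.09 FPKM against 9.83, 6.84 and 9.15 FPKM in untreated control cultures. Their log2 differences were -0.30 ± 0.15 and -0.27 ± 0.18 (SE), and neither was called (limma adjusted p = 0.374 for the lower of the pair). The log2 interval of Lsm10 ran from -0.62 to 0.02. The groups did not overlap for 2 members that were higher in SMA, Snrpa1 and Lsm6 (2 of 32, beside 7.78% of all tested genes), and for 4 that were lower, Snrpn, Snrnp200, Lsm14b and Snrnp40 (4 of 32, beside 12.5%).

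With R-Roscovitine in both genotypes, again none of 32 members was called, where 0.00667% of all tested genes were. At an unadjusted p under 0.05 there were 3 members, beside 13.0% of all tested genes; 1 was higher in SMA (beside 8.04%) and 2 lower (beside 4.91%). Of the 32, 18 were higher and 14 lower, with a median log2 difference of 0.03 against -0.02 over all tested genes. Snrpn had the lowest p, at 77.3, 81.6 and 67.4 FPKM in treated SMA against 143, 104 and 90.2 FPKM in treated control cultures. The groups did not overlap, although treated control library 1 was well above the other 2, and the log2 difference was -0.53 ± 0.16 (SE; 95% interval -0.88 to -0.19; limma adjusted p = 0.226). Snrpd3 had 131, 148 and 155 FPKM in treated SMA against 190, 169 and 187 FPKM in treated control cultures, without overlap (log2 difference -0.32 ± 0.11, SE; limma adjusted p = 0.263). Lsmd1, the acetyltransferase subunit, had 84.3, 80.6 and 82.7 FPKM against 58.4, 69.6 and 65.5 FPKM (log2 difference 0.37 ± 0.16, SE; limma adjusted p = 0.351). Snrpa1, which had led without treatment, had 26.6, 33.4 and 38.4 FPKM in treated SMA against 30.5, 28.1 and 27.8 FPKM in treated control cultures, which overlap.

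Non-overlapping groups under treatment were found for 3 members higher in SMA, Snrpf, Snrpd2 and Lsmd1 (3 of 32, beside 8.90% of all tested genes), and for 3 lower, Snrpn, Snrpd3 and Snrnp40 (3 of 32, beside 8.87%). Snrpn and Snrnp40 were lower without overlap under both treatments, 2 of 32 beside 2.86% of all tested genes, and no member was higher in both, beside 2.47%. Snrnp40 is the steadiest member but one, and its values were 15.6, 15.1 and 15.1 FPKM in treated SMA and 16.6, 16.9 and 14.9 FPKM in untreated SMA cultures, against 16.7, 17.4 and 17.8 FPKM in treated and 17.004, 17.2 and 17.2 FPKM in untreated control cultures. The averaged log2 difference of Snrnp40 was not called (limma adjusted p = 0.467).

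**Figure D2:**
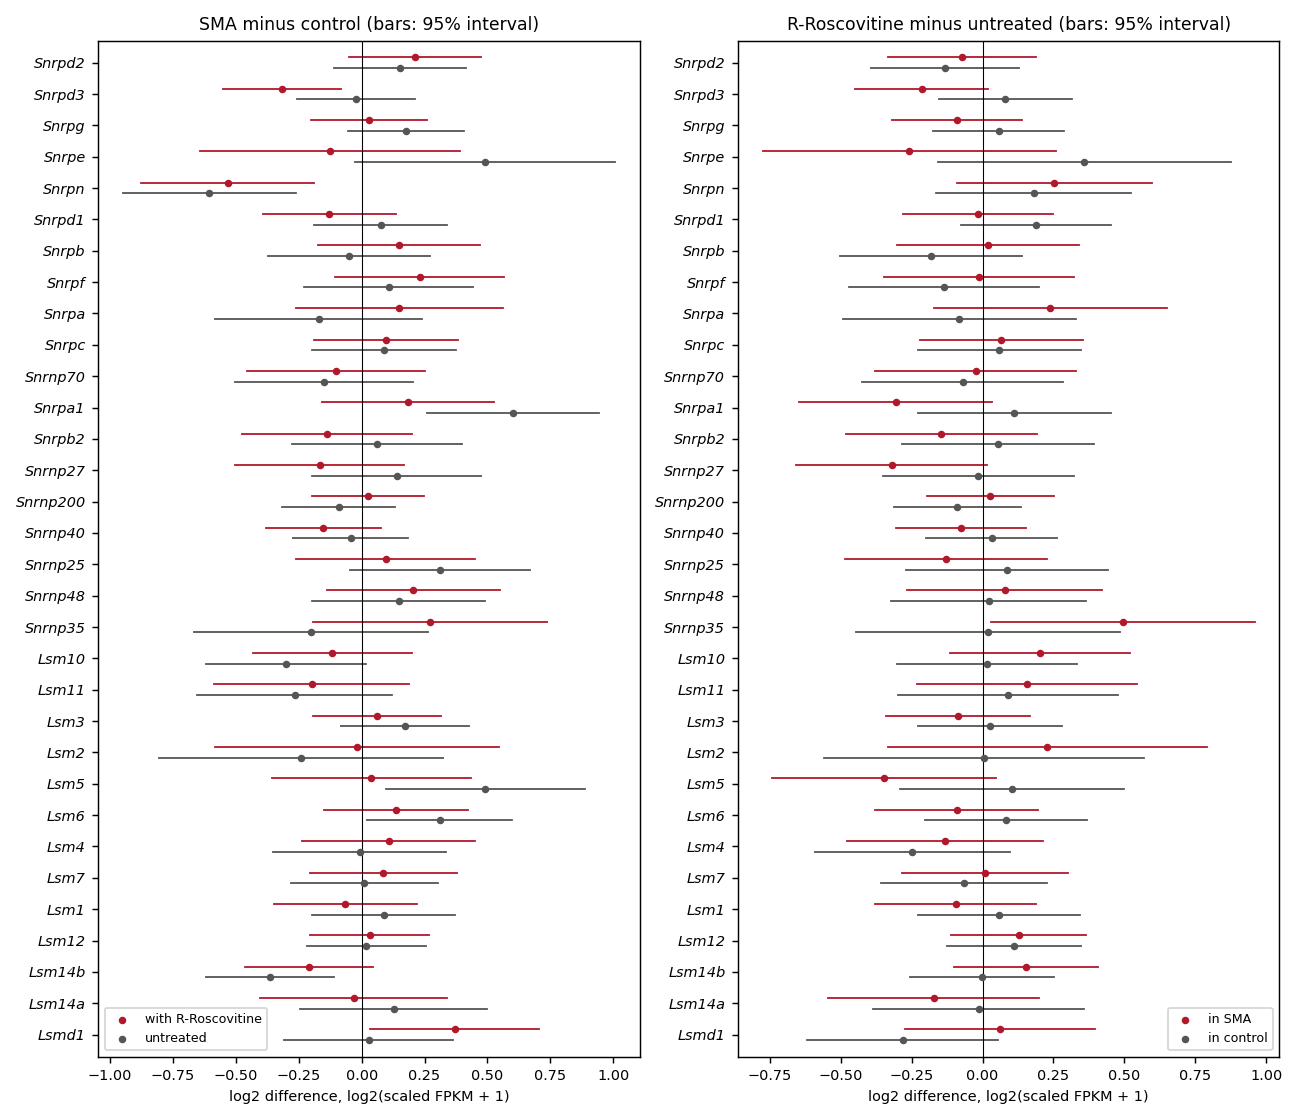
Difference of each tested member in log2(scaled FPKM + 1), with 95% intervals from the fit over 12 libraries; left, SMA minus control with R-Roscovitine (red) and untreated (grey); right, R-Roscovitine minus untreated in SMA (red) and in control (grey) cultures. Snrpn lies left of 0 in both genotype comparisons (-0.53 and -0.61), and most other intervals span 0.

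Averaging the genotype difference over both treatments, Snrpn was the 1 member called, lower in SMA cultures by a log2 difference of -0.57 ± 0.11 (SE; 95% interval -0.81 to -0.33; limma adjusted p = 0.0223). It was lower in SMA without overlap under each treatment. In this comparison 1 of 32 members was called, where 4.83% of all tested genes were (3.03% higher and 1.80% lower). At an unadjusted p under 0.05 there were 5 of 32 members, beside 23.2% of all tested genes; 2 were higher (beside 11.9%) and 3 lower (beside 11.3%). Snrpa1 (log2 difference 0.39 ± 0.11, SE; limma adjusted p = 0.0618) and Lsm14b (-0.29 ± 0.08, SE; limma adjusted p = 0.0654) followed and were not called. Treated and untreated libraries of the same genotype and number varied together, so the 12 libraries were taken as 6 pairs. Their titles give only genotype, treatment and number, so the pairing is inferred. With 1 mean per pair the Snrpn difference had an adjusted p of 0.170 in limma and no member was called. The Snrpn call was also lost, with limma adjusted p from 0.0535 to 0.0729, when any 1 of 5 libraries was left out (treated SMA 1 or 3, untreated SMA 3, treated control 1 or untreated control 2), and it was 0.0570 without both control libraries 1.

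Snurf, which shares its primary transcript with Snrpn, had 57.8, 52.0 and 67.3 FPKM in treated SMA and 85.7, 60.3 and 58.8 FPKM in untreated SMA cultures, against 155, 79.8 and 82.2 FPKM in treated and 145, 86.5 and 99.0 FPKM in untreated control cultures. In both genotype comparisons the control library 1 was the highest. The averaged log2 difference of Snurf was -0.69 (limma adjusted p = 0.0453). This call is close to the threshold: it was lost with 1 mean per pair of libraries (limma adjusted p = 0.201), without the filter on low values (0.111), with quantile normalization (0.0516), without control libraries 1 of both treatments (0.0922, a setting chosen after seeing the data) and in 10 of 12 fits that left out 1 library (0.0426 to 0.121 over the 12). It held in the 2 fits without treated control library 2 or 3. As a sum of FPKM, in which each gene's reads count by that gene's own length, Snrpn plus Snurf came to 134 ± 0.745 FPKM in treated SMA against 218 ± 69.4 FPKM in treated control cultures, and 131 ± 18.0 in untreated SMA against 210 ± 41.4 FPKM in untreated control cultures (SD, n = 3 each; exact two-sided permutation p = 0.1 in both). Of the 5 non-member genes listed for the imprinted domain around Snrpn, Snurf was the 1 called; Ndn, a paternally expressed neuronal gene of that domain, had 119, 121 and 114 FPKM in treated SMA and 96.2, 93.9 and 109 FPKM in untreated SMA cultures, against 130, 113 and 113 FPKM in treated and 162, 106 and 98.0 FPKM in untreated control cultures, which overlap.

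For Snrpb the genotypes overlapped. It had 50.7, 66.4 and 74.4 FPKM in treated SMA and 52.9, 69.9 and 65.1 FPKM in untreated SMA cultures, against 52.7, 60.7 and 59.2 FPKM in treated and 77.1, 60.3 and 63.1 FPKM in untreated control cultures. Snrpn made up 54.3 ± 6.47% of the Snrpn and Snrpb sum in treated SMA against 65.6 ± 6.64% in treated control cultures, which overlap (exact two-sided permutation p = 0.2), and 50.3 ± 4.92% in untreated SMA against 59.9 ± 1.86% in untreated control cultures, which do not (p = 0.1, exact; SD, n = 3 each). The sum of both mRNAs was 139 ± 10.3 in treated SMA against 170 ± 23.5 FPKM in treated control cultures, and 126 ± 5.56 in untreated SMA against 166 ± 20.3 FPKM in untreated control cultures (exact two-sided permutation p = 0.1 in both).

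**Figure D3:**
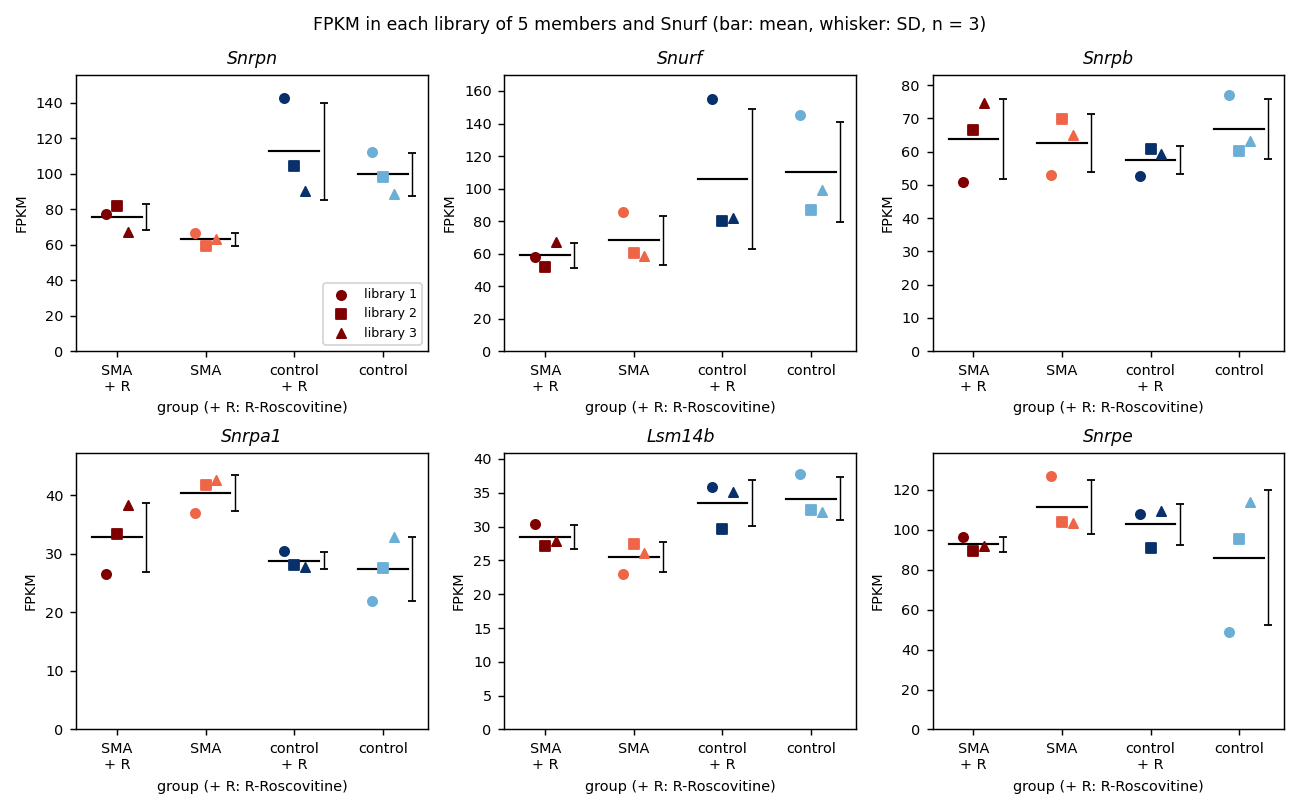
FPKM of Snrpn, Snurf, Snrpb, Snrpa1, Lsm14b and Snrpe in each library (marker shape gives the library number), with the group mean as a bar and the SD as a whisker; + R marks R-Roscovitine. Snrpn lies between 59.4 and 81.6 FPKM in the 6 SMA libraries and between 88.4 and 143 FPKM in the 6 control libraries, while Snrpb overlaps between genotypes and Snrpe has 1 low value at 48.7 FPKM.

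Summed pan-neuronal markers stood lower in untreated SMA than in untreated control cultures, and with treatment the genotypes overlapped. Since SmN is mainly neuronal, Snrpn was also set against these markers. The ratios only describe levels, and the part of neuronal content in the members' differences was not tested. Per 100 FPKM of the 12 summed neuronal markers, Snrpn had 6.67, 7.64 and 7.38 FPKM in treated SMA against 9.49, 9.61 and 8.85 FPKM in treated control cultures. Without treatment the ratio was 7.15, 7.46 and 7.50 in SMA against 8.08, 9.58 and 9.21 in control cultures. The genotypes did not overlap in either (exact two-sided permutation p = 0.1 each), and the mean in SMA cultures was 77.6% of that in control cultures with treatment and 82.3% without. For Lsm14b the genotypes overlapped: per 100 FPKM of neuronal markers it had 2.74 ± 0.273 in treated SMA against 2.85 ± 0.543 in treated control cultures, and 3.00 ± 0.489 in untreated SMA against 3.08 ± 0.324 in untreated control cultures (SD, n = 3 each; exact two-sided permutation p = 0.8 and 0.9). Per 100 FPKM of 10 summed proliferation markers, Snrpa1 had 4.54 ± 0.632 in treated SMA against 4.22 ± 0.603 in treated control cultures (p = 0.6), and 5.04 ± 0.453 in untreated SMA against 3.80 ± 0.473 in untreated control cultures (exact two-sided permutation p = 0.1).

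**Figure D4:**
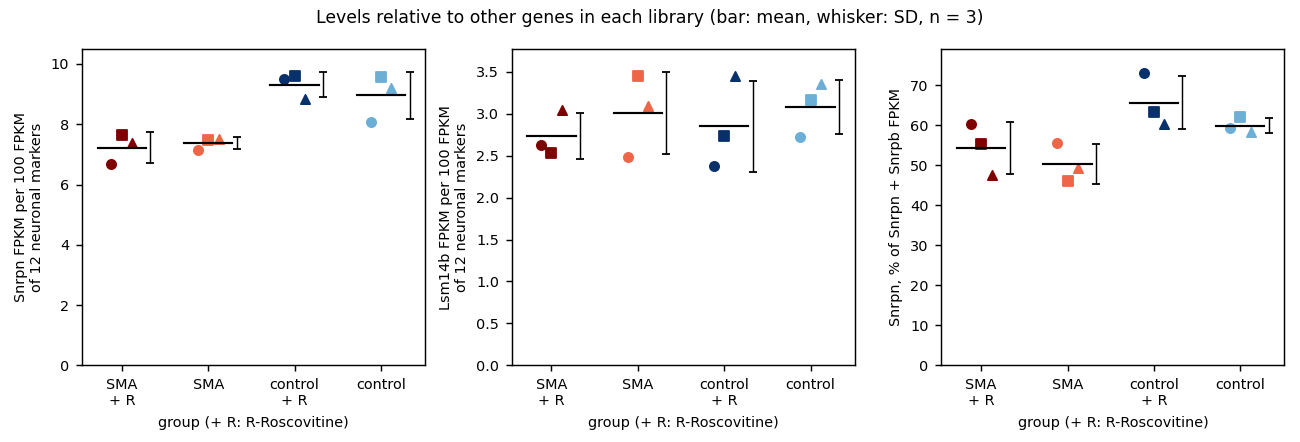
Snrpn (left) and Lsm14b (middle) in FPKM per 100 FPKM of 12 summed pan-neuronal markers, and Snrpn as a percentage of Snrpn plus Snrpb (right), in each library with group mean (bar) and SD (whisker); + R marks R-Roscovitine. Relative to neuronal markers, Snrpn is at 6.67 to 7.64 in SMA and 8.08 to 9.61 in control libraries, whereas Lsm14b overlaps between the genotypes.

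The 250 bases before the RefSeq start of Snrpn that lies nearest to Snurf are shown with those of Lsm14b, since these are the members with the lowest p among those below control in the averaged comparison; capitals mark motif matches on either strand. The motifs searched were CCGGAAG, the core bound by ETS factors, GGGCGG, the GC box bound by SP1, and ATGGCGGC, a YY1 sequence. The classical promoter elements CCAAT (a box bound by NF-Y) and the TATA box, spelled TATAAA, were searched as well, and no listed motif contains another.
Snrpn, GRCm38.p6 chr7:60005200-60005449, minus strand: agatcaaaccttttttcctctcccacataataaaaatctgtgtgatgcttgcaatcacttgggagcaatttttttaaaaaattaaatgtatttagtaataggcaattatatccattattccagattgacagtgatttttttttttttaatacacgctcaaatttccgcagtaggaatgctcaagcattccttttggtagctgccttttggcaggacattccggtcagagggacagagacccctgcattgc
Lsm14b, GRCm38.p6 chr2:180024737-180024986, plus strand: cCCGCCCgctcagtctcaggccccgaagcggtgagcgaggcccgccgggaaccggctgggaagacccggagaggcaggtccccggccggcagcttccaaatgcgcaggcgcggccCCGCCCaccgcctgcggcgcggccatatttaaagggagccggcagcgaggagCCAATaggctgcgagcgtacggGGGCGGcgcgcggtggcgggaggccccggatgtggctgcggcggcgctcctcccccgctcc
The Snrpn window holds none of these motifs, 3 CpG dinucleotides and 36.8% G and C, while the Lsm14b window holds 3 SP1 matches, 1 CCAAT box, 34 CpG and 76% G and C. At other RefSeq starts Snrpn does have a CCAAT box and a TATA box, so it is counted for both below. Of 26 members with a RefSeq promoter, counting a gene when any of its listed starts matches, 6 held the ETS motif (23.1%, beside 7.83% of 27025 gene symbols), 16 the SP1 motif (61.5% beside 35.4%), 10 a CCAAT box (38.5% beside 37.5%), 3 a TATA box (11.5% beside 14.3%), and 0 the YY1 motif (beside 1.19%). The median promoter of a member had 15.5 CpG, beside 6 over all symbols. A match says only that the letters are present.

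R-Roscovitine moved no member past the threshold. In SMA cultures 0 of 32 were called and 0.00% of all tested genes; 1 member had an unadjusted p under 0.05, beside 2.41% of all tested genes (1.53% higher and 0.881% lower). That member was Snrnp35 of the U11 particle, at 4.31, 3.17 and 6.36 FPKM in treated against 3.25, 2.62 and 2.79 FPKM in untreated SMA cultures, which overlap (log2 difference 0.49 ± 0.22, SE; limma adjusted p = 0.999). Cufflinks' own interval for Snrnp35 reaches a median of 27.5% to either side of its value, the widest of the 32. Snrnp27 had 76.7, 73.2 and 96.4 FPKM in treated against 105, 106 and 95.1 FPKM in untreated SMA cultures (log2 difference -0.32 ± 0.16, SE; limma adjusted p = 0.999). Snrpd3 had 131, 148 and 155 FPKM in treated against 169, 183 and 152 FPKM in untreated SMA cultures (log2 difference -0.21 ± 0.11, SE; limma adjusted p = 0.999).

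Of the 32, 14 were higher and 18 lower in treated SMA cultures, with a median of -0.02, against 0.00 over all tested genes. Snrpn was higher without overlap (1 of 32, beside 6.17% of all tested genes), at a log2 difference of 0.25 ± 0.16 (SE), and Lsm1, Snrpe and Lsm5 were lower without overlap (3 of 32, beside 4.94%). Beside this, all 12 pan-neuronal markers were higher in treated SMA cultures (median log2 difference 0.34), where 50.4% of all tested genes were. In treated control cultures 11 of these 12 were higher (median 0.11), where 50.8% of all tested genes were. Snrpn per 100 FPKM of those markers was 7.23 ± 0.503 in treated against 7.37 ± 0.195 in untreated SMA cultures (SD, n = 3 each; exact two-sided permutation p = 0.8). None of these 12 markers was called, and their part in the Snrpn difference was not tested. Pair by pair, 5 members were higher and 8 lower in 3 of 3 SMA pairs, beside 19% and 17.2% of all tested genes.

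In control cultures 0 of 32 members were called, as were 0.00% of all tested genes, and none had an unadjusted p under 0.05, beside 1.25%. The 3 with the lowest p were Lsmd1, at 58.4, 69.6 and 65.5 FPKM in treated against 104, 74.6 and 65.8 FPKM in untreated control cultures, Lsm4, at 27.1, 32.6 and 32.3 against 49.1, 27.9 and 37.3 FPKM, and Snrpd1, at 85.3, 78.8 and 94.1 against 69.4, 73.7 and 88.1 FPKM. Their log2 differences were -0.28 ± 0.16, -0.25 ± 0.16 and 0.19 ± 0.12 (SE; limma adjusted p = 0.9997 each). For Lsmd1 and Lsm4 the highest value is that of untreated control library 1, and without both control libraries 1 the Lsm4 difference was 0.024. No member's groups were free of overlap, beside 1.48% of all tested genes higher and 3.04% lower. In the 3 control pairs 4 members were higher each time and 0 lower each time, beside 10.6% and 10.9% of all tested genes.

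Whether the treatment acted differently in the genotypes was tested as an interaction, and 0 of 32 members were called, as were 0.00% of all tested genes; none had an unadjusted p under 0.05, beside 1.91%. The treatment differences in SMA and in control cultures lay furthest apart, by p, for Snrpd3 (-0.21 in SMA and 0.08 in control cultures; interaction -0.29 ± 0.15), Snrpa1 (-0.31 and 0.11; interaction -0.42 ± 0.22) and Snrpe (-0.26 and 0.36; interaction -0.62 ± 0.34, all log2 with SE; limma adjusted p = 0.9999 each). The Snrpe value rests in part on the low untreated control library 1 given above.

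Genes that work with the members were counted from fixed lists. Of 9 SMN complex genes, 1 was called in the treated and in the untreated genotype comparison, Smn1. In the averaged comparison 2 were called lower, beside 1.80% of all tested genes. With 1 mean per pair of libraries, Smn1 was the only gene still called (limma adjusted p = 0.000476). None of 6 genes for Sm protein methylation, which prepares Sm proteins for SMN, and none of 9 genes for snRNA export, import and cap formation was called in any of the 6 comparisons. Among the export and import genes, Snupn, the import adaptor that reads the snRNA cap, had the lowest p without treatment (log2 difference 0.36; limma adjusted p = 0.313). None of 9 tested SF3 genes of U2, 14 of the U4/U6.U5 particles, 8 of U11/U12, 7 of histone 3' end processing or 8 partners of LSM1-7 in mRNA decay was called in any comparison. With treatment, 2 of 9 SF3 genes were higher and 7 lower in SMA (median log2 difference -0.08), and without treatment the split was the same (median -0.17). Of the histone processing genes 1 of 7 was higher and 6 lower in both comparisons, with medians of -0.13 with treatment and -0.07 without. Of the decay partners 6 of 8 were higher and 2 lower with treatment (median 0.02), and 7 higher and 1 lower without (median 0.12). The U4/U6.U5 list of 14 had 6 higher and 8 lower with treatment (median -0.04), and 4 higher and 10 lower without (median -0.09). The U11/U12 list had 3 of 8 higher and 5 lower in both, with medians of -0.08 with treatment and -0.13 without.

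Transcript length ran with the genotype difference. Among tested genes whose longest coding transcript has up to 1000 bases, 655 in all, the median log2 difference was 0.13 with treatment and 0.06 without, with 66.4% and 59.5% of genes higher in SMA; over 1000 and up to 2000 bases it was 0.02 and -0.02, and over 2000 bases -0.05 and -0.02. The 10 members of up to 1000 bases had medians of 0.05 with treatment and 0.09 without, with 6 and 7 of them higher. The 12 members over 1000 and up to 2000 bases had medians of 0.12 and 0.05, with 9 and 7 of them higher, and the 10 members over 2000 bases had medians of -0.10 and -0.0018, so that with treatment the middle class of members, not the shortest, had the highest median. The part of length in the members' differences was not tested.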

How the data were processed

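The authors deposited FPKM per gene with an interval and status for each value. Cufflinks 2.2.1 and the GRCm38 build, with FastQC 0.10.1 and Trim Galore 0.4.0, are listed per the submitters' processing notes. Total RNA was prepared with Lexogen's mRNA kit, per the labels' protocols; strand setting and aligner stand in none of the sources used here. Every member had status OK in every library. Between 36.8% and 39.7% of low values were whole reads within 0.01, so depth could be read but not counts. FPKM were scaled by median-of-ratios factors and tested as log2(scaled FPKM + 1) with limma 3.58.1 in R 4.3.3 (trend, 4 group means, 12 libraries, two-sided), which understates changes of low genes. Genes with FPKM of at least 1 in at least 3 libraries were tested, without small RNA genes. Single values were compared by exact permutation of unscaled FPKM. Nothing says whether libraries came from separate animals, so p-values measure the spread between libraries. Treated and untreated libraries of 1 genotype and number were taken as pairs, since their deviations from group means correlated in every case (0.45 to 0.57 in SMA, 0.24 to 0.60 in control cultures). Members, lists and the rule for named genes (the 3 lowest p per comparison, the Sm and U7 rings, Snrpb, Snrpn and the extremes of level) were chosen with earlier results of these data known. Transcripts and gene names are from GENCODE M21, and promoters from RefSeq (GRCm38.p6). Cufflinks' intervals cover counting and assignment error only.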

Additional observations from a re-analysis of the deposited data

How the results depend on the processing

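Of 508 values of named genes under other settings, 472 kept their direction and side of the threshold. Many of these, as in the treatment comparisons, lay far from the threshold and could hardly change side. A call was lost in 22, all of Snrpn or Snurf in the averaged genotype comparison (Snurf in 14 of 20 settings), and gained in 9. The sign changed in 5, none of them called. These 5 were Lsm4 with R-Roscovitine in control cultures (0.0282 with library weights, 0.0238 without control libraries 1 of both treatments, a setting chosen after seeing the data), Snrpn with R-Roscovitine in control cultures (-0.0028 without treated control 1; up to 0.334 without treated control 3), and the Snrpn interaction (-0.0034 without untreated control 1, -0.0816 without treated control 3; up to 0.251 without treated control 1). Members called: in untreated cultures 2 with library weights and 2 with the library number as a block, against 0; in the averaged genotype comparison, against 1, none without the filter on low values (Snrpn adjusted p = 0.0658), with 1 mean per pair (replicate block) or without both control libraries 1, but 4 with library weights and 3 with the number block; leaving out 1 library gave 0 to 2. All tested genes called: untreated 458 with weights, 327 with the number block and 2 without control libraries 1, against 1 (1 to 4 leaving out 1 library); treated 15, 252 and 2, and 3 with only the 6 libraries compared, against 1 (1 to 228 leaving out 1 library); interaction 1 without the filter, against 0; averaged 1 without the filter, 2017 with weights, 1772 with the number block, 1 with 1 mean per pair and 64 without control libraries 1, against 723 (6 to 1363 leaving out 1 library). The causes were not tested. Without scaling, the split of averaged calls was 365 higher and 323 lower, against 454 and 269. Between SMA and control libraries of the same number, deviations correlated at -0.06 to 0.14 untreated and 0.05 to 0.31 treated. With treatment each was above the correlations with other numbers (at most 0.0023). Without treatment this held only for number 2 (0.14 against 0.01). Whether the number marks something shared by both genotypes was not tested. For members at an unadjusted p under 0.05 with R-Roscovitine in SMA, the block of 6 pairs gave 3 against 1, and it changed no call. Cufflinks' intervals, which cover counting and assignment error together, were widest for Snrnp35, Snrpf and Snrnp48.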
